A study of Rattus norvegicus with 6 samples.

Results

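The resting transcriptome of the rat liver was described in the 3 animals of the study that received only corn oil, the vehicle. They were chosen by the treatment label and make up 3 of the 6 arrays. The other 3 rats received carbon tetrachloride at 100 mg per kg per day, and their arrays were not compared here. All 3 corn oil rats were male Sprague-Dawley animals of the Crl:CD(SD) stock, bought at 5 weeks of age and kept on a basal diet. The labels conflict on timing, with 28 days in the series' design text and dosing for 9 weeks in the protocol, so the length of exposure to corn oil is not settled. The volume and route of the corn oil, the feeding state and the hour of sampling are not given in the labels. The labels describe the replicates as separate animals, here called rats 1, 2 and 3, with 1 array each. Total RNA, 0.2 µg per animal, was labelled with the dye Cy3 and hybridised to 1-colour Agilent arrays, whose probes are short fixed DNA strands that light up in proportion to the bound transcript.

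The liver is built mainly of hepatocytes, which make most plasma proteins, assemble lipoproteins, dispose of nitrogen as urea, hold and release glucose, make bile acids and modify drugs and steroids. Hepatocytes near the portal vein and near the central vein divide this work between them. Kupffer cells (the resident macrophages), sinusoidal endothelial cells, vitamin A-storing stellate cells and bile duct cells make up most of the rest. In rats many hepatic genes also differ between the sexes, through the pulsatile pattern of growth hormone in males and the steadier one in females.

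The signal of each probe was expressed as a level, which is log2 of its background-subtracted intensity minus the same quantity at the 75th percentile of its array. A level of 0 is therefore the 75th percentile, and a step of 1 is a 2-fold difference in signal. Of 61537 probes other than controls, 38523 (62.6%) were well above background on all 3 arrays by the scanner software's own flag, and 18488 (30.0%) on none. An outlier flag was set on 18 of the 61537 probes, and after their removal 38508 probes above background on all 3 arrays were ranked by mean level. Only 19631 of them could be paired with a gene symbol, so 18877 bright or dim probes have no gene in the account below. At the level of genes, 15635 had a usable probe, and each was represented by its brightest probe that was well above background on all 3 arrays. In 11509 genes (73.6%) such a probe existed, and in 3207 no probe was above background on any array. The order of genes by brightness describes probe signals and is not an order of transcript abundance, because probes differ in how well they bind: 2 probes of the same gene differed by a median of 1.55 on the log2 scale.

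The arrays were alike in general quality with 1 exception. The 75th percentile was 583 to 598 intensity units, and each array detected 65.0% to 67.3% of the probes. All 3 arrays lay on the same slide. Among 245 spots of 7 spiked control series per array, none lay more than 0.4 (log2) below the median of its series in rat 1, 1 in rat 2 and 15 in rat 3. The software's coefficient of variation for these spots was 2.90% in rat 1, 4.26% in rat 2 and 12.2% in rat 3, and the last was outside the range that the software accepts. A single-spot drop of more than 2 (log2), with the other 2 animals within 0.5 of each other, was found in 9 of the 38508 probes for rat 1, 21 for rat 2 and 84 for rat 3. For that reason other probes of a gene are given beside many of its largest differences. Where none is given, the printed values rest on 1 spot per array. Genes with only 1 probe include Fgf21, Cyp3a9, Atf3, Sult2a6, Rspo3, Smad7, Klkb1, C6, Atp5po, Cps1, Tat, Kmo, Egr1, Per2, Nr1d1 and Ccnb1.

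The brightest genes in the corn oil liver encoded secreted and lipid-carrying proteins. In descending order of mean level, the leading named genes were Apoe, Obp3, Ttr, Mup4l4, Tf, Fabp1, Ftl1, Hp, Mup4l1 and Ambp. Apoe, the apolipoprotein that directs remnant particles to their receptors, stood at 10.30, 10.23 and 10.22 in rats 1, 2 and 3. Ttr, the thyroid hormone and retinol carrier transthyretin, read 10.29, 10.27 and 10.17. Tf, the iron carrier transferrin, read 10.22, 10.15 and 10.25, and its second probe was also among the 20 brightest. All 3 animals were close together at this end of the scale.

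Fabp1, the fatty acid binding protein of the hepatocyte cytoplasm, read 10.10, 10.11 and 10.08, an SD of only 0.016. Alb, which encodes albumin, ranked 18th among genes at 9.79, 9.74 and 9.93. Its other probes lay lower, at 9.37, 9.33 and 9.52 and at 9.38, 9.33 and 9.23, which shows how far rank depends on the probe. Obp3, Mup4l4, Mup4l1, Mup5 and Rup2 belong to the family of alpha-2u globulins and related urinary proteins that the male rat liver secretes. Members of that family are nearly identical in sequence, so their probes may bind each other's transcripts and the individual levels are uncertain. Of the 20 brightest probes 10 had no gene symbol, among them the 3 that reached scanner saturation on at least 1 array.

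**Figure D1:**
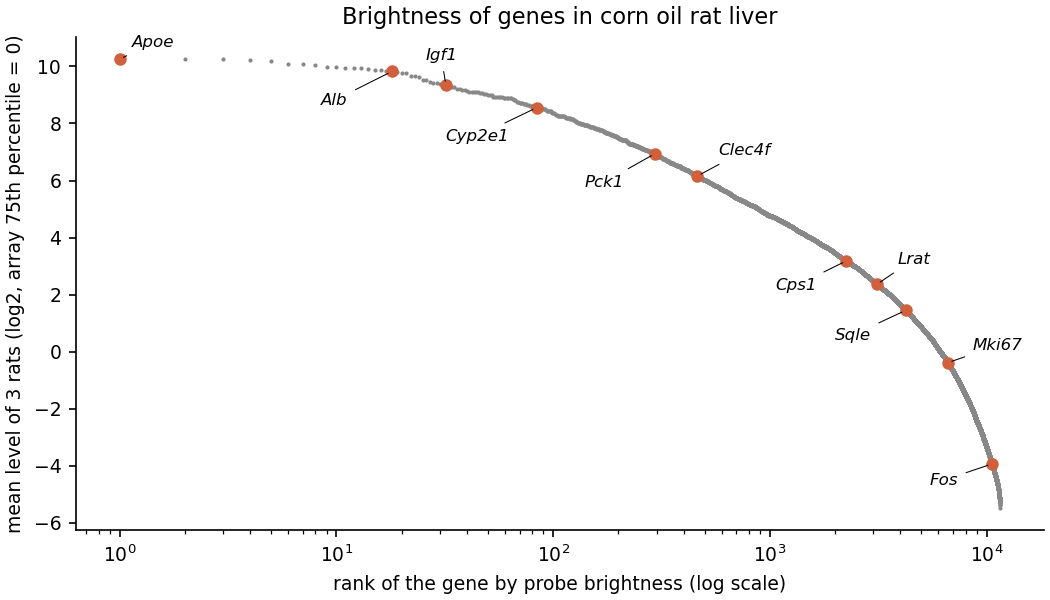
Mean level of each of 11509 genes (vertical axis, log2 relative to the 75th percentile of the array, mean of 3 corn oil rats) against its rank by brightness (horizontal axis, log scale). Grey points are genes and orange points are named ones; the curve is flat over the leading genes, near a level of 10, and spans 10.25 down to -5.47.

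The promoters of the brightest genes were searched for letters of known elements. Windows of 250 bases before the gene start came from RefSeq on the GRCr8 assembly. The letters searched were TATAAA, the core of the TATA box, on the gene's strand only, and GTTAATNAT, the first 9 letters of the HNF1 consensus, on both strands. A gene counted as a match when at least 1 of its windows held the letters, and shares are of genes with a window. TATAAA was present in 21.6% of the 162 such genes among the 200 brightest and in 8.06% of those on the array. Among genes above background on all 3 arrays it was in 5.86%, and among genes above background on none in 15.2%. GTTAATNAT was present in 3.70% of the 200 brightest genes with a window and in 0.603% of those on the array. CpG dinucleotides were counted in each gene's richest window. They were fewer in the brightest genes, with a median of 6 against 15 in all genes above background. Of the male-predominant genes of the rat, a list described below, 6 of 15 with a window held TATAAA (40.0%). A match is a string of letters and does not show that a factor binds there.

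These 3 windows are shown as examples from leading genes, on the strand of the gene, with the matched letters in capitals. The albumin window is chr14:17906980-17907229 on the minus strand, and capitals mark GTTAATNAT beginning 82 bases before the start. The Fabp1 window is chr4:104749090-104749339 on the plus strand, and capitals mark TATAAA beginning 40 bases before the start. The Obp3 window is chr5:79640676-79640925 on the minus strand, with TATAAA in capitals beginning 33 bases before the start.
Alb: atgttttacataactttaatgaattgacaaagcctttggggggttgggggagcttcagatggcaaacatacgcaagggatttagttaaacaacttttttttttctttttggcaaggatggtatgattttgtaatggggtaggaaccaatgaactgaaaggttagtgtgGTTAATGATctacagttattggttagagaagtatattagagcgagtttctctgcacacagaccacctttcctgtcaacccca
Fabp1: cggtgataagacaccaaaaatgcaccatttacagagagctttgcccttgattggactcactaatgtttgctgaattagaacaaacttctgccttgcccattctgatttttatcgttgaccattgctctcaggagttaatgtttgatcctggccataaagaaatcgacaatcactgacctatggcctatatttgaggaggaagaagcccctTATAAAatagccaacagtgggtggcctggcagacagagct
Obp3: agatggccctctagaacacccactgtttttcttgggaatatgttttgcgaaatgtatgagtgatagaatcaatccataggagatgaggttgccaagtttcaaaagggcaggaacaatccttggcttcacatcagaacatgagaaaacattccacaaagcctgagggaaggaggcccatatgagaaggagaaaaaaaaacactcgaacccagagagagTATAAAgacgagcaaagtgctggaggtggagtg

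Groups of genes by function are described next. In each group the brightest and the most variable members are named by a fixed rule, and further members named beside them were chosen after their values were seen. Plasma proteins formed the brightest list. Of 22 carrier and protease inhibitor genes on the array 21 were above background on all 3 arrays, with a median level of 9.27, against 0.29 over all 11509 genes. Transthyretin, transferrin, Ambp, Rbp4 (the retinol carrier), Itih4 and Serpina1 (alpha-1 antitrypsin) all had levels over 9. Not 1 of the 21 differed by more than 1 (log2) between the highest and the lowest animal, a range that 6.34% of all genes exceeded. Apcs, a pentraxin, and Hpx, the heme carrier, varied most, at 6.89, 6.57 and 7.19 and at 9.36, 9.03 and 9.42. Serpina6, the corticosteroid carrier, was the dimmest member at 5.12, 4.81 and 5.16.

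Apolipoproteins and lipoprotein assembly genes followed, with a median level of 8.51 over 18 genes. None had a range over 1, which in a list of this size is again close to the shares above. Apoc1 read 10.01, 9.79 and 10.06, and Apoc3, an inhibitor of triglyceride clearance, 9.96, 9.82 and 10.04. Apoa1, the main protein of high-density lipoprotein, was lower in rat 1 (8.04) than in rats 2 and 3 (8.61 each). Apoa2 ran the other way, with 9.01 in rat 1, 8.50 in rat 2 and 8.30 in rat 3. Pltp, which moves phospholipid between particles, was higher in rat 3 at 1.02, 1.07 and 1.64. Mttp, which loads lipid onto apolipoprotein B, was even in the 3 animals at 3.34, 3.37 and 3.39.

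Coagulation genes had a median level of 6.96 over 18 genes and complement genes one of 6.19 over 19. The fibrinogen chains Fga, Fgb and Fgg and prothrombin (F2) led the first group, all with levels over 9. C3, on which all complement pathways converge, led the second at 9.94, 9.83 and 10.02. In both groups rat 2 was the lowest animal for most members. This held for 17 of 19 complement genes and 14 of 18 coagulation genes, where 34.6% of all genes were lowest in rat 2. With second-brightest probes it held for 7 of 10 and 10 of 11. The differences were small: the median complement gene lay 0.18 below its own mean in rat 2. Cfb, factor B of the alternative pathway, read 9.17, 8.82 and 9.16, and C9 6.88, 6.30 and 6.98. The kininogen genes Kng1 and Kng2, which are close copies, showed larger gaps, at 7.59, 6.81 and 7.49 and at 7.66, 6.91 and 7.68. C6, a part of the membrane attack complex, was the only complement gene with a range over 1, at 4.63, 3.30 and 3.74. Klkb1, plasma prekallikrein, was the only coagulation gene with one, at 4.37, 4.22 and 5.69. Both counts are close to the 6.34% of all genes that had such a range.

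Acute phase genes, which the liver raises in inflammation, were spread over a wide scale. Hp, haptoglobin, read 10.33, 9.91 and 9.93. Mt1, a metallothionein, read 9.55, 9.80 and 9.67. Hamp, the iron hormone hepcidin, read 7.86, 7.34 and 8.06. At the other end Lcn2 stood at -2.04, -0.96 and -1.38 and Socs3, the feedback inhibitor of cytokine signalling, at -1.41, -0.72 and -1.66 on the brighter of its 2 probes. A2m, a major acute phase gene of the rat, differed between the animals, at 1.87, 3.92 and 3.02. Its second probe gave the same order of animals, at 1.06, 3.21 and 2.26. Orm1 was lowest in rat 2, at 6.87, 5.56 and 6.53. Of 18 acute phase genes 5 had a range over 1, against 6.34% of all genes. The median SD was 0.317, against 0.160 over all genes.

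**Figure D2:**
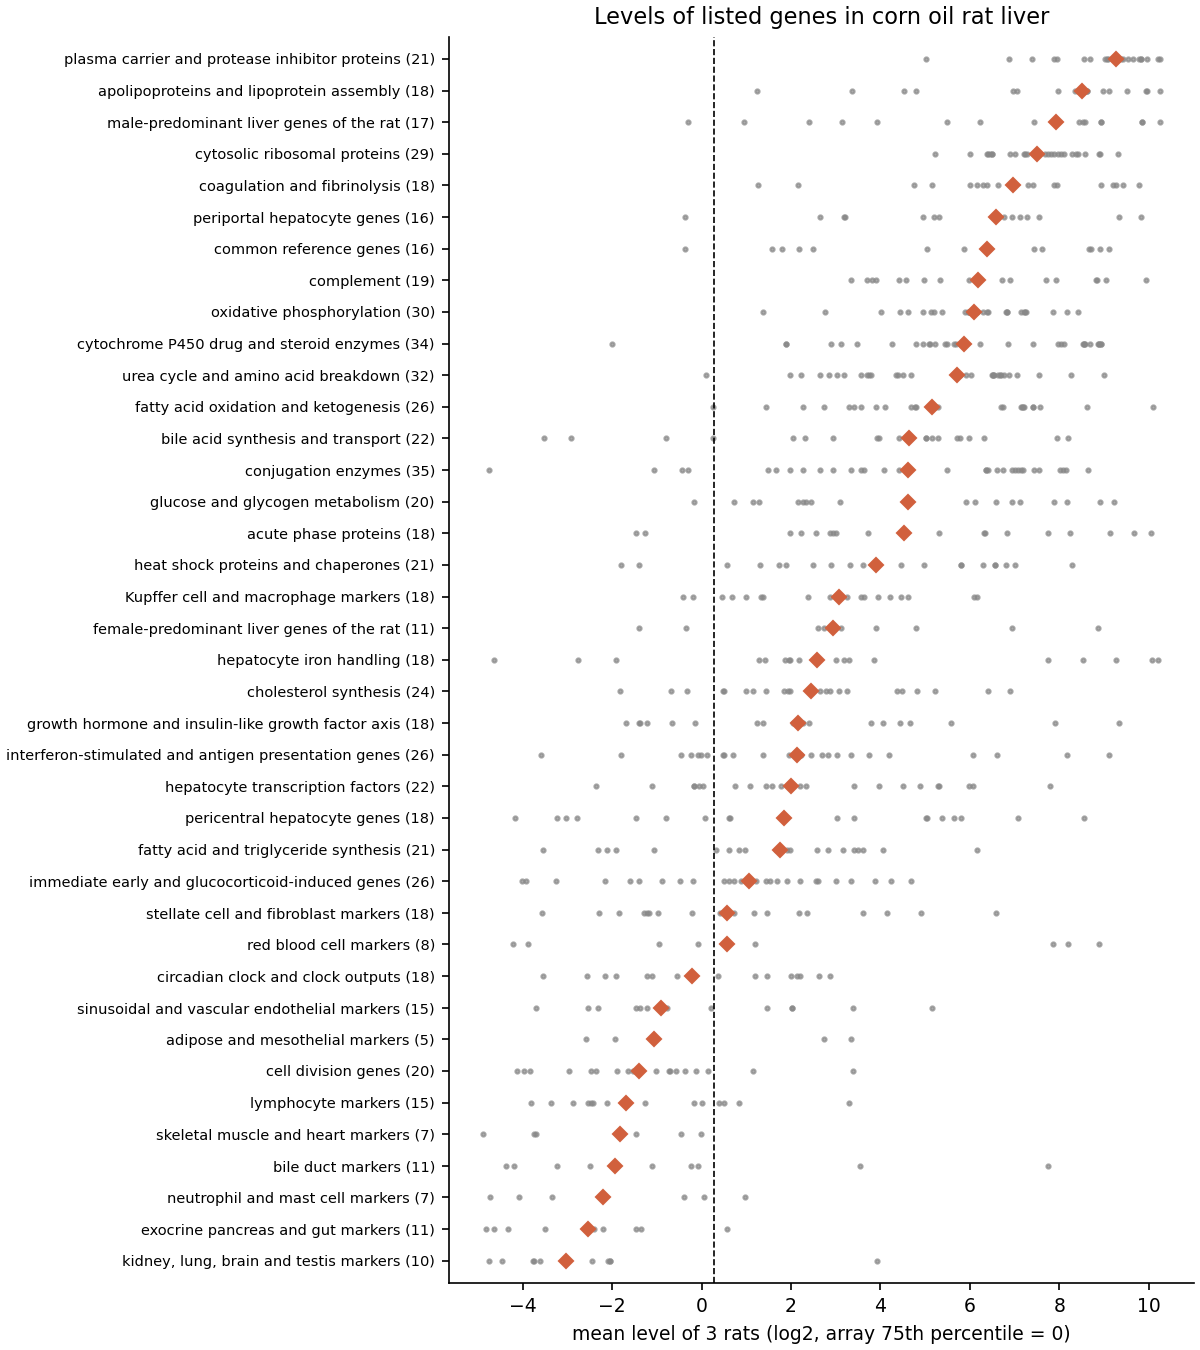
Mean level over 3 corn oil rats (horizontal axis, log2 relative to the array's 75th percentile) of each listed gene that was well above background on all 3 arrays, with their number in parentheses. Grey points are genes, orange diamonds are list medians and the dashed line is the median of all 11509 genes, 0.29; secreted plasma proteins lie at the top and markers of other organs at the bottom.

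Drug and steroid metabolism was also among the bright functions. Of 36 cytochrome P450 genes 34 were above background on all 3 arrays, with a median level of 5.86. Cyp2d1 read 9.12, 8.76 and 8.82. Cyp4a2, a fatty acid hydroxylase, read 8.59, 8.92 and 9.30, and Cyp2e1, the enzyme that oxidises ethanol and carbon tetrachloride, read 8.65, 8.57 and 8.45. Cyp1a2, an aryl hydrocarbon receptor target, read 6.01, 5.55 and 5.41, while Cyp1a1, another target, was above background on no array. Cyp3a9 differed widely, at 4.27 in rat 1, 1.51 in rat 2 and 3.55 in rat 3. Closely related P450 genes can share probe signal, so single members are uncertain.

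Conjugation enzymes had a median level of 4.62 over 35 genes, led by the glutathione transferases Gsta5 at 8.48, 8.89 and 8.55 and Gsta1 at 8.16, 8.17 and 8.09. Sult2a6, a hydroxysteroid sulfotransferase, was highest in rat 1 at 4.05, 2.00 and 2.77. Gstm3 was highest in rat 3, at -1.06, -0.70 and 0.84, and its second probe had the same highest and lowest animal. Rat 3 was the highest animal for 21 of the 35 conjugation genes, where 38.1% of all genes were highest in rat 3. With second-brightest probes it was 9 of 17.

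Nitrogen metabolism was a second group with a shared order of the animals. All 32 genes of the urea cycle and amino acid breakdown on the array were above background, with a median level of 5.72. Bhmt, which remethylates homocysteine, led at 9.29, 9.12 and 8.59. Mat1a, which makes S-adenosylmethionine in liver, read 8.35, 8.25 and 8.19. Kmo, of the kynurenine pathway, read 2.64, 2.13 and 1.14. Cps1, the entry enzyme of the urea cycle, read 3.91, 3.20 and 2.44. Ass1, which joins citrulline and aspartate, read 7.08, 6.74 and 6.49, and Asl, which splits the product, 7.33, 6.95 and 6.85. Hal, the first enzyme of histidine breakdown, read 7.25, 6.23 and 6.40. Tat, the tyrosine aminotransferase induced by glucocorticoids, read 3.00, 1.49 and 2.18. Rat 1 was the highest animal for 24 of the 32 genes, whereas it was the highest for 27.3% of all genes. Their median deviation in rat 1 was 0.19 above the gene's own mean. With the second-brightest probe, which 13 of them had, 7 of 13 were highest in rat 1 and the median deviation was 0.092. Genes named as periportal in the liver lobule overlap this list and had the same order: 13 of 16 were highest in rat 1. With the second-brightest probe this was 4 of 8, and the median deviation was 0.13 in place of 0.33. Aldh1b1, a periportal gene, was lowest in rat 3 on its brightest probe at 0.18, 0.60 and -1.87, but not on its second at -2.37, -2.35 and -2.12. Pericentral genes had no common order, with a median level of 1.84 over 18 genes. Gstm1 was their second brightest at 6.84, 7.14 and 7.27, and Tbx3, a target of Wnt signalling, was highest in rat 1 at 1.69, 0.13 and 0.12.

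Glucose metabolism was mixed. Fbp1, the gluconeogenic fructose bisphosphatase, was the steadiest of the bright members at 9.21, 9.24 and 9.21. Pck1, the cytosolic step to phosphoenolpyruvate, read 7.32, 6.75 and 6.75, and G6pc1, which releases free glucose, 7.64, 7.11 and 6.60.

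Lipid synthesis and lipid oxidation were both measured. The fatty acid and triglyceride synthesis genes had a median level of 1.76 over 21 genes, cholesterol synthesis 2.44 over 24, and fatty acid oxidation and ketogenesis 5.16 over 26. Dgat2, the last step to triglyceride, read 6.01, 6.24 and 6.21, and Elovl2, an elongase of polyunsaturated chains, 3.80, 4.50 and 3.86. Elovl6, an elongase of saturated chains, was lower in rat 3 at -1.46, -1.47 and -2.79. Fasn, the fatty acid synthase, read 0.86, 1.36 and 0.31. Scd, the delta-9 desaturase, ran against most of its list with 2.27, 2.85 and 4.35. Its second probe repeated the order, at 0.60, 1.14 and 2.66.

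In cholesterol synthesis rat 3 was the lowest animal for 19 of 24 genes, where 29.3% of all genes were lowest in rat 3. Lss, lanosterol synthase, read 1.26, 1.71 and 0.45, Sqle, the squalene epoxidase, 1.73, 1.93 and 0.69, and Idi1 read 2.25, 2.15 and 1.11. Insig1, the sterol sensor that is itself a target of the pathway's regulator, read 5.64, 5.49 and 4.56. The brightest members, Hmgcs1 and Ebp, were not lowest in rat 3, at 7.30, 6.67 and 6.71 and at 6.56, 6.29 and 6.37. With second-brightest probes the count was 13 of 16. In fatty acid oxidation the same animal was at the top: 19 of 26 genes were highest in rat 3, against 38.1% of all genes. Acadm (7.19, 7.06 and 7.41) and Pdk4 (-0.03, -0.14 and 0.92) were among them. With second-brightest probes 5 of 8 were highest in rat 3. Acaa1a, a peroxisomal thiolase, was the second brightest member at 8.65, 8.52 and 8.66, and Acot1, a thioesterase, varied at 2.70, 2.16 and 3.34.

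Bile acid genes had a median level of 4.63 over 22 genes. Baat, which joins bile acids to amino acids, read 8.23, 8.05 and 8.32, and Slc27a5, which activates them first, 7.92, 8.28 and 7.67. Slc10a1, the uptake transporter of the sinusoidal membrane, was even at 6.31, 6.34 and 6.32. Cyp7a1, the rate-limiting enzyme of bile acid synthesis, was among the most variable genes of the liver at 1.55, -1.25 and -2.70. The repressor Nr0b2 (the short heterodimer partner) was also lowest in rat 3, at 6.83, 6.50 and 4.65. Both genes have a single probe. Cyp8b1, which sets the share of cholic acid, varied less, at 5.42, 4.73 and 4.89.

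The sex labels were checked against genes that differ between male and female rat liver. The 17 male-predominant genes had a median level of 7.93, and all were above background. Cyp2c11, the main male-specific P450, read 8.54, 8.38 and 8.69, and Cyp3a2 read 9.07, 8.52 and 9.18. Of 13 female-predominant genes 11 were above background, against 73.6% of all genes, with a median level of 2.94. These included Cyp2c7, a gene that male liver also expresses, at 9.02, 8.65 and 8.96, and the sulfotransferase Sult2a1 at 6.87, 6.88 and 7.06. The female-predominant list had the widest spread of the hepatocyte lists, a median SD of 0.595, against 0.160 over all genes. In it 6 of 11 genes had a range over 1, against 6.34% of all genes.

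Several of the most variable genes belonged to this sex-related set. Cyp2c12, the main female-specific P450, read 0.87 in rat 1, 4.29 in rat 2 and 3.53 in rat 3. Onecut1, also named HNF6, is a hepatocyte factor that activates Cyp2c12 in female liver. It read 2.76, 5.30 and 5.44, and its second probe 1.60, 4.14 and 4.25. Rat 1 was thus the low animal for both genes. Stac3, a male-predominant gene, had the opposite order, with 4.86, 1.20 and 3.34. Prlr, the prolactin receptor, read 0.68, -3.74 and -1.16, with rat 2 lowest. Of the 11 female-predominant genes 7 were lowest in rat 2, against 34.6% of all genes, and 6 were highest in rat 1, against 27.3%. Cyp2c12, Stac3 and Prlr have a single probe each. In the growth hormone pathway Cish read -1.16, -0.19 and 0.91 and Socs2 1.24, 2.38 and 2.54. Both encode feedback inhibitors of the signal. The second probe of Cish read -0.61, -0.76 and 0.18, so its lowest animal depended on the probe. Bcl6, a repressor that is higher in male liver, read 2.86, 1.33 and 2.59. Igf1, the circulating growth factor that growth hormone drives, was even at 9.43, 9.22 and 9.37, as was Igfbp4, one of its binding proteins, at 7.96, 7.83 and 7.92. Igfbp2 read 1.79, 4.19 and 1.20, and all 3 of its probes were highest in rat 2.

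Transcription factors that define hepatocytes were present at modest signal, with a median level of 1.99 over 22 genes. Hnf4a read 4.30, 3.76 and 3.87, and Nr1i2, the pregnane X receptor, 6.08, 6.09 and 6.07. Creb3l3, a membrane-bound factor of the fasted liver, was the brightest at 7.77, 7.73 and 7.87. Foxa2, a pioneer factor of liver genes, was highest in rat 3 at 2.03, 1.82 and 3.12. Of the 22 factors 4 had a range over 1, against 6.34% of all genes.

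Clock genes form the feedback loop that keeps time in the liver. Bmal1, the positive arm, was even at 2.16, 2.02 and 2.19. The negative arm varied: Per2 read -1.15, -2.15 and -2.45, Per1 -1.76, -1.84 and -2.87, and Nr1d1 -0.88, -0.13 and 0.32. The second probe of Per1 was even, at -3.83, -4.00 and -3.84. Dbp, a clock output, read 2.91, 2.67 and 2.30. Usp2, a rhythmic deubiquitinase, read 2.86, 3.04 and 2.73, and Nampt, which makes NAD, 1.14, 0.87 and 2.38. Noct, a rhythmic deadenylase-like gene, was low in rat 3 on its 2 probes above background on all arrays, at 0.64, 0.80 and -2.02 and at 0.57, 0.94 and -2.43. Of 18 clock genes 9 had a range over 1, against 6.34% of all genes. The median SD was 0.441, against 0.160 over all genes.

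Immediate early and glucocorticoid-induced genes, which respond quickly to stimuli and hormones, had the largest spread of all lists. The median SD was 0.615, against 0.160 over all genes. Of 26 genes 17 had a range over 1, against 6.34% of all genes. Rat 3 was highest for 15 of the 26, against 38.1% of all genes, and lowest for 9 of them. Jun read 1.76, 1.71 and 3.12, Junb 2.00, 2.06 and 3.71, Atf3 -1.41, -0.07 and 0.90, and Egr1 -0.57, 0.94 and 1.10. Dusp6, a phosphatase of the ERK kinases, was the brightest at 4.25, 4.57 and 5.26, and Jund was nearly as bright at 4.13, 4.11 and 4.47. Fos itself was dim in each animal, at -4.27, -3.78 and -3.74. Myc went the other way, at 1.63, 2.40 and 0.53.

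Markers of the other liver cells were present below the hepatocyte genes. Of 19 macrophage markers 18 were above background, with a median level of 3.06. None of the 18 had a range over 1, which in so short a list is close to the 6.34% of all genes. The brightest was Clec4f, specific to Kupffer cells, at 6.01, 6.18 and 6.28, followed by C1qb at 5.88, 6.24 and 6.13. Adgre1, the F4/80 antigen, read 0.56, 0.88 and 1.51, and Marco, a scavenger receptor, 0.24, 0.92 and 0.90. Rat 1 was lowest for 14 of the 18, where 36.2% of all genes were lowest in rat 1, and the median deviation was 0.20 below the gene's mean. With second-brightest probes it was 9 of 11. All 15 endothelial markers were above background, with a median level of -0.90, led by Kdr (5.15, 5.03 and 5.32) and Fcgr2b (3.20, 3.30 and 3.69). Rspo3, a Wnt amplifier of central vein endothelium, was lower in rat 3 at -0.50, -0.33 and -2.07, and Emcn read -2.62, -3.04 and -1.97. Stellate cell and fibroblast markers had a median level of 0.57, and Lrat, the vitamin A esterase of stellate cells, was even at 2.36, 2.36 and 2.37. Ecm1, secreted by stellate cells, read 4.81, 4.99 and 4.89. Bile duct markers were dimmer, with a median level of -1.93. Of 14 on the array 11 were above background, close to the 73.6% of all genes. Their brightest member, Krt18 (7.88, 7.84 and 7.55), is a keratin that hepatocytes also make. In whole tissue, fewer cells of a type and less RNA per cell cannot be told apart.

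Blood in the tissue was measurable. Hba-a1, an alpha globin, read 8.60, 9.32 and 8.76, and Hbb 7.60, 8.22 and 7.74. Ahsp, which holds free alpha globin, read -0.43, 0.99 and -0.81. Alas2, the heme enzyme of red cell precursors, read 0.65, 1.90 and 1.04. Of the 8 red cell genes above background 6 were highest in rat 2, against 34.5% of all genes, and 2 in rat 1. The animal with the highest globin signal was thus also the one with the lowest signal for most complement genes, and the part of blood in the other results was not tested. Lymphocyte markers were mostly dim: 15 of 19 were above background, close to the 73.6% of all genes, with a median level of -1.69. The brightest was Ccl5, a chemokine of T and natural killer cells, at 3.29, 3.35 and 3.28. Of 15 neutrophil and mast cell markers 7 were above background on all 3 arrays, against 73.6% of all genes, and 5 on none. The median level of the 7 was -2.21. The brightest were S100a9, at 0.72, 1.67 and 0.49, and S100a8, at -0.16, 0.78 and -0.46. Markers of other organs were less often above background than those of liver cells, and the brightest of them are given by value. Of 22 markers of kidney, lung, brain and testis 12 were above background on no array, of 16 muscle markers 8, and of 18 pancreas and gut markers 6. Of all 15635 genes 3207 were above background on none. On all 3 arrays 10, 7 and 11 of these markers were above background, against 73.6% of all genes. The brightest muscle markers were Tnni2 (-0.18, -0.08 and 0.22) and Mb (-0.66, -0.38 and -0.34). Fabp2, given below, and Ctrb1 (-1.45, -1.29 and -1.33) led the pancreas and gut markers. Ckm, the muscle creatine kinase, was above background in each animal on 1 probe, at -0.40, -1.22 and -2.80, and on no array on its other probe. Acta1, skeletal actin, read -5.12, -4.77 and -4.77. Of 10 adipose and mesothelial markers 5 were above background on all 3 arrays and 3 on none. The brightest were Cfd (3.36, 3.37 and 3.27) and Cidec (2.38, 2.94 and 2.90). Adipoq, which fat cells secrete, was above background on no array, and Cela1, a pancreatic elastase, on 1 array. The hepatocyte markers Alb, Ttr, Apoa1, Serpina1, Cps1, Tat, Cyp2e1 and Hnf4a were above background in every animal.

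The 3 livers were similar as wholes. Levels of the 11509 genes correlated at 0.990 between rats 1 and 2, 0.990 between rats 1 and 3 and 0.989 between rats 2 and 3. These are correlations across genes, which are not independent replicates. The SD of the difference between 2 animals was 0.432 to 0.469. The median gene had an SD of 0.160 over the 3 animals, and the 5th and 95th percentiles of the genes' SDs were 0.037 and 0.582. The control series, which were spiked in equal amount, had SDs of 0.046 to 0.089, with a median of 0.071. Spread grew towards dim probes, from a median SD of 0.122 in the brightest 25% of genes to 0.232 in the dimmest 25%. A range over 1 was found in 730 genes (6.34%), and a range over 2 in 124. Among all 11509 genes, 2.08%, 2.54% and 1.73% had such a range with rat 1, 2 and 3 as the highest animal, and 2.13%, 1.73% and 2.49% with rat 1, 2 and 3 as the lowest. Rat 3 was the odd one out in 269 of the 730, rat 2 in 248 and rat 1 in 213. Rat 3 was low rather than high in 162 of its 269 genes.

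**Figure D3:**
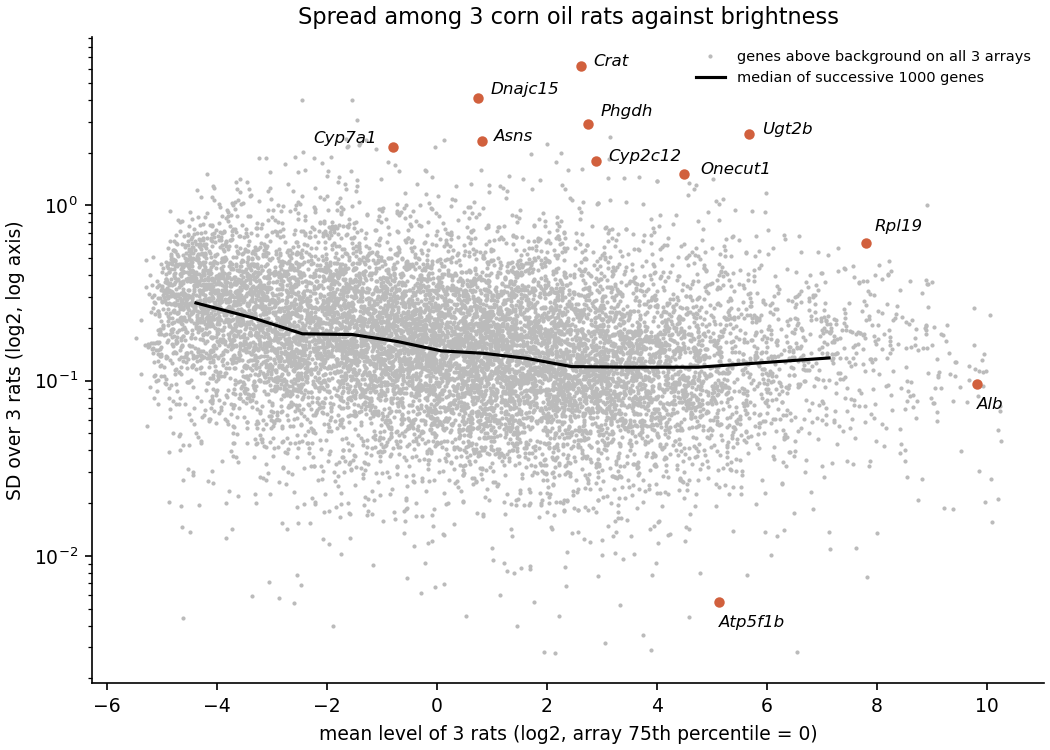
SD over the 3 corn oil rats (vertical axis, log2 units on a log axis) against mean level (horizontal axis, log2 relative to the array's 75th percentile) for 11509 genes. Grey points are genes, orange points are named genes and the black line joins medians of successive groups of 1000 genes ordered by level; the spread is smaller at higher levels, and Crat, Dnajc15, Phgdh and Ugt2b lie far above the line.

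Other probes of the same gene were used to see how often a spread was shared between spots. Of 274 genes with several probes whose brightest probe had a range over 1, the second probe had a range over 1 in 135 (49.3%). It placed the same animals highest and lowest in 155 (56.6%), against 40.2% of all 5740 genes with 2 or more probes. Where every probe above background had a range over 1, in 127 genes, the share was 79.5%. Those genes were selected for a wide spread on every probe of the same arrays. A higher share is therefore partly built into the selection, and no conclusion is drawn from it.

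The largest SD of a gene belonged to Crat, carnitine acetyltransferase, and was not shared by its other probe. The brighter probe read 6.23, 6.23 and -4.58, and the other 1.26, 1.16 and 1.37. Fau, a ribosomal fusion gene, had the largest SD of any probe, at 7.81, 8.05 and -4.63, while its 4 other probes were even in the 3 animals. Both low spots lay on the array of rat 3 within columns 158 to 162. Tex10 was spread on 1 probe (-0.37, 0.94 and -4.90), while each of its 2 others stayed within 0.5 over the animals. Dnajc15 (3.00, 3.24 and -3.96) and Rnf227 (-3.98, -3.72 and 3.10) have a single probe each, so their extreme value in rat 3 has no second measure. Mlc1 (-4.83, 2.17 and -4.66) and Sapcd2 (-2.87, -2.40 and 1.44) have a second probe that was not above background on all arrays. Acsm5, an acyl-CoA synthetase, was high in rat 1 on 2 of 3 probes, at 5.97, 1.57 and 1.89 and at 2.35, -0.31 and 0.23, and even on the third.

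The largest spread that separate probes shared was in Phgdh, which commits glucose carbon to serine synthesis. It read 0.18 in rat 1, 5.92 in rat 2 and 2.16 in rat 3. The second probe gave 0.05, 5.90 and 2.05. The highest animal was thus 53.4-fold above the lowest on the first probe. Ugt2b, a glucuronosyltransferase, came next, at 2.77, 6.69 and 7.59 and on its second probe at -3.31, 6.48 and 7.51. In this gene rat 1 was the low animal, and the family's near-identical members make the identity of the signal uncertain. Among bright genes with a single probe, Akr1c2 read 4.42, 1.30 and 2.19.

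Phgdh did not stand alone. Psat1, the next enzyme of serine synthesis, read -2.19, 2.52 and 0.10. Asns, asparagine synthetase, read -1.35, 3.30 and 0.51. Adm2 read -3.76, 0.97 and -2.13. Asns has a single probe, and the second probes of Psat1 and Adm2, above background on 1 array each, were also highest in rat 2. These genes are known targets of ATF4, the factor that is made when amino acids are short or proteins misfold. A list of 41 genes of amino acid response and serine synthesis was drawn up after those values had been seen, so its counts describe these animals and support nothing. Of the 36 members above background on all arrays, 25 were highest in rat 2 and 26 lowest in rat 1, and 15 had a range over 1. Over all genes 34.5% were highest in rat 2 and 36.2% lowest in rat 1, and 6.34% had a range over 1. With second-brightest probes 14 of 21 members were highest in rat 2.

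Fgf21, the liver hormone of protein and energy restriction, read 0.13, 4.05 and 2.59. Mthfd2, a mitochondrial folate enzyme, read -2.32, 1.11 and -1.45, and all 5 of its probes were highest in rat 2. Trib3 read -0.24, 2.29 and 1.42, and Nupr1, a stress-induced nuclear protein, 3.27, 5.41 and 5.06. The transcript of Atf4 itself differed less, at 5.09, 5.95 and 5.49. Atf5 and Gars1, the brightest members, read 5.36, 6.04 and 6.19 and 5.34, 6.11 and 5.53. Other members did not follow. Cth, which makes cysteine, was highest in rat 1 at 5.20, 4.21 and 4.10, and Sesn2 was lowest in rat 2 at -0.09, -1.47 and -0.54. Ddit3, also named CHOP, was even at 2.86, 2.71 and 3.11. Chac1 was even on its brightest probe (1.23, 1.38 and 1.16) but not on a dimmer one (-2.08, 0.80 and -0.10).

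**Figure D4:**
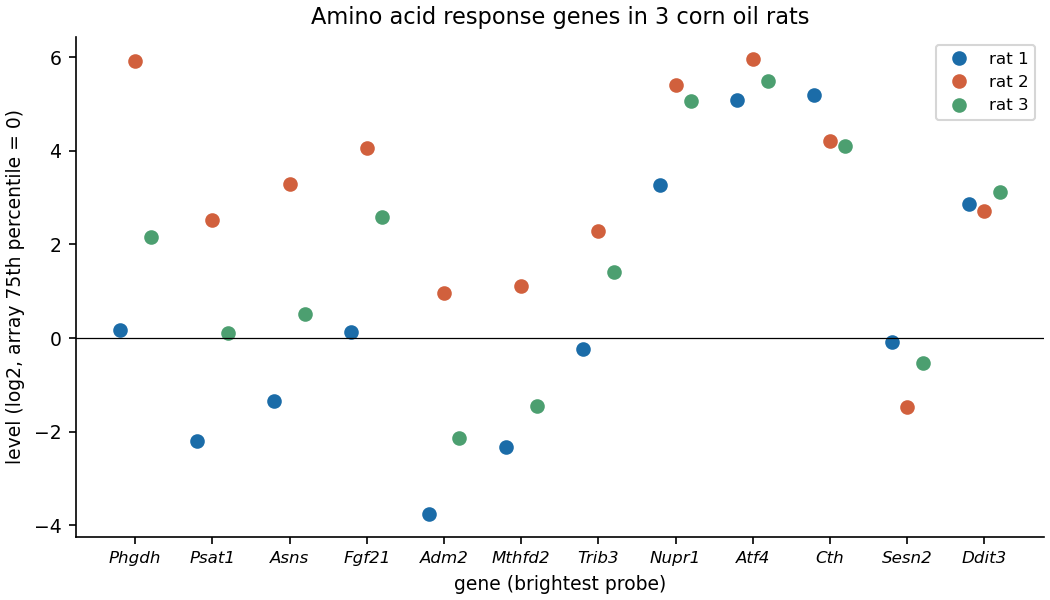
Level of 12 genes of amino acid response and serine synthesis (vertical axis, log2 relative to the array's 75th percentile) in rat 1 (blue), rat 2 (orange) and rat 3 (green), brightest probe of each gene, chosen after their values were seen. Rat 2 is highest and rat 1 lowest for the first 9 genes from Phgdh to Atf4, and Cth, Sesn2 and Ddit3 differ from that order.

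The promoters of this set were searched for TTGCATCA, a core of the element that ATF4 binds together with C/EBP factors, on both strands of the same 250-base windows. It was found in 8 of the 36 genes with a window (22.2%): Chac1, Aars1, Mars1, Nars1, Tars1, Nupr1, Fgf21 and Pycr1. Among all genes on the array with a window it was found in 0.658%. Phgdh, Psat1 and Asns had no match in their windows, which says only that these letters are not there. The genes of the list are known targets of the pathway, so the match is a description of the list. Of the 8, Fgf21, Nupr1 and Aars1 had a range over 1. Aars1 was lowest in rat 3 on its brighter probe, with a range of 1.31, and highest there on its second probe (3.36, 3.47 and 3.64).

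These 3 windows show the matched letters in capitals, on the strand of the gene, from the same RefSeq tables on GRCr8. The Fgf21 window is chr1:105221377-105221626 on the minus strand, with the match beginning 143 bases before the start. The Chac1 window is chr3:126795881-126796130 on the plus strand, with the match beginning 167 bases before the start. The Nupr1 window is chr1:190645902-190646151 on the minus strand, with the match beginning 55 bases before the start.
Fgf21: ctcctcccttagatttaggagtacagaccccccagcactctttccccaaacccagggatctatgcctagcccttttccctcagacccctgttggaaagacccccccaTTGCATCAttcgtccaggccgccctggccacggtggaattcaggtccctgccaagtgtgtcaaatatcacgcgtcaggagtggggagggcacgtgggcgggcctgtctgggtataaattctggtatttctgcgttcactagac
Chac1: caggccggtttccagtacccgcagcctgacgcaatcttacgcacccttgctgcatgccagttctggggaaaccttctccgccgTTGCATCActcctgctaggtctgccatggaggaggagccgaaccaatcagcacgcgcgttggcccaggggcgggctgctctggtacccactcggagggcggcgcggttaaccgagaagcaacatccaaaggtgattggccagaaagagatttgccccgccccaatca
Nupr1: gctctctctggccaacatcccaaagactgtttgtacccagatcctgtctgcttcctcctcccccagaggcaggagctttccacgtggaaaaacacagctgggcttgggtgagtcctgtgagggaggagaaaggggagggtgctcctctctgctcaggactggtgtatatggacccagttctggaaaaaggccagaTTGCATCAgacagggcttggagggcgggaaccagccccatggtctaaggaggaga

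A smaller but uniform difference between the animals was seen in cytosolic ribosomal proteins. All 29 genes of this list above background were highest in rat 2, against 34.5% of all genes. Rpl41, the brightest, read 9.23, 9.47 and 9.22, and Rplp0, of the ribosomal stalk, 8.81, 9.09 and 8.84. Rps6, the S6 kinase target, read 8.16, 8.45 and 8.22, and Rpl3 6.28, 6.71 and 6.16. The median deviation of the list in rat 2 was 0.19 above the gene's mean. Of the 29 only Rpl19 had a range over 1, where 6.34% of all genes had one. It read 7.16, 8.37 and 7.88, and its 3 other probes were far more even, such as 7.17, 7.29 and 7.13. The order held with the second-brightest probe (26 of 26), with scaling to the median, with quantile normalization and with normexp background correction (29 of 29 each). The 7 control series were also all highest in rat 2, with a median deviation of 0.08, and the part of this in the ribosomal difference was not tested.

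Cell division genes were dim, with a median level of -1.41 over 20 genes above background. Rat 1 was lowest for 15 of them, against 36.2% of all genes. Ccnd1, the cyclin of entry into the cycle, was the brightest and an exception, at 3.50, 3.44 and 3.23. Pcna, the replication clamp, read 1.12, 1.39 and 0.91, and Ccnb1, the mitotic cyclin, -5.15, -3.38 and -3.36. Mki67, the proliferation marker, read -0.67, -0.24 and -0.24, and Cdk1, the mitotic kinase, -1.54, -0.30 and -0.31. With second-brightest probes the count was 8 of 11.

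**Figure D5:**
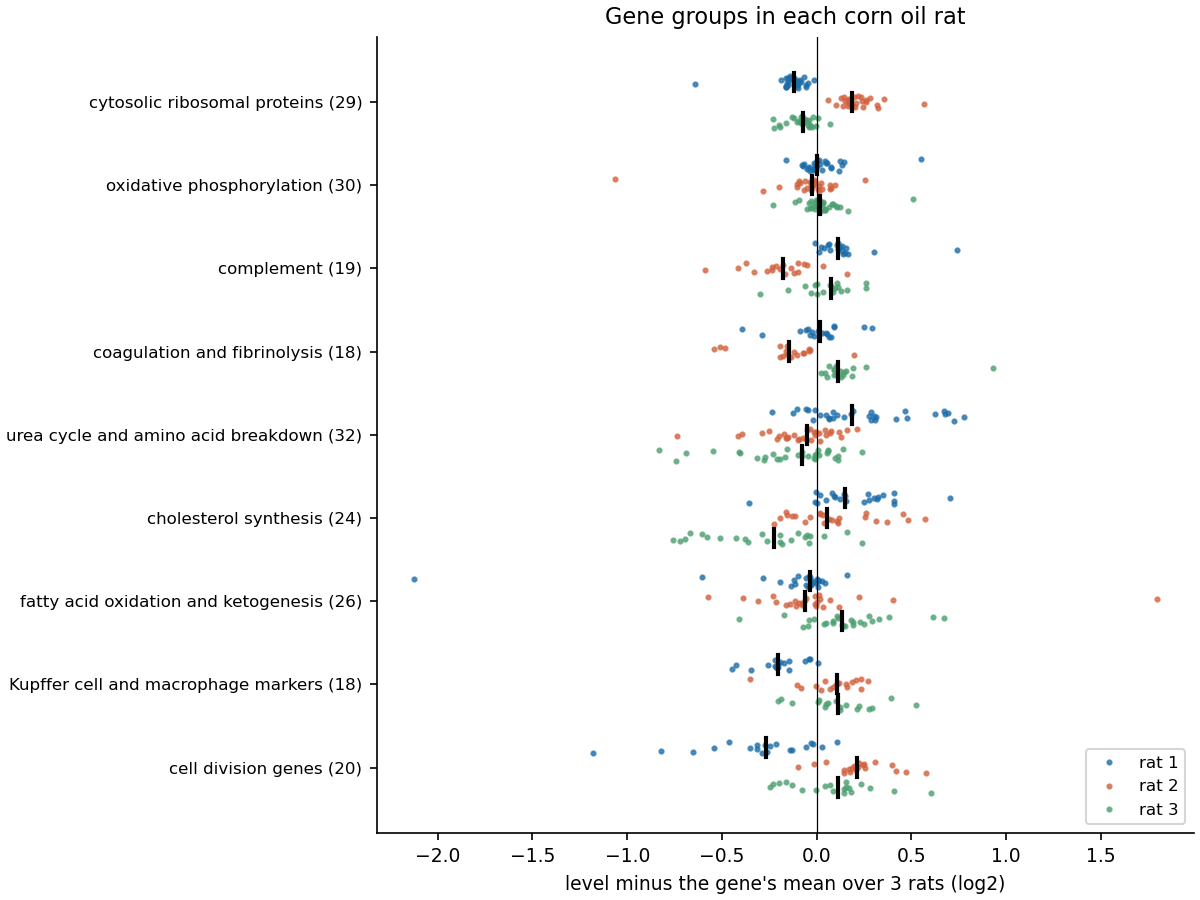
Deviation of each gene's level from its own mean over the 3 rats (horizontal axis, log2) in rat 1 (blue), rat 2 (orange) and rat 3 (green), for 9 gene groups with the number of genes in parentheses. Points are genes and black bars are medians; ribosomal protein genes lie to the right in rat 2, complement genes to the left in rat 2, cholesterol synthesis genes to the left in rat 3 and macrophage markers to the left in rat 1.

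Oxidative phosphorylation was the tightest list. Its 30 genes had a median level of 6.10 and a median SD of 0.065, against 0.160 over all genes. Atp5f1b, the catalytic subunit of ATP synthase, read 5.13, 5.13 and 5.14, and Cox4i1, a cytochrome oxidase subunit, 7.83, 7.88 and 7.89. The brightest members, Cox6a1 and Atp5f1a, read 8.41, 8.39 and 8.46 and 8.22, 8.11 and 8.19. Of the 30 only Atp5po had a range over 1, where 6.34% of all genes had one. It was low in rat 2 at 6.52, 4.91 and 6.48. Genes often used as references were also even, with a median SD of 0.101 over 16 genes. None of the 16 had a range over 1, which in so short a list is close to the 6.34% of all genes. Actb read 5.85, 5.94 and 5.84, and Eef1a1 7.63, 7.63 and 7.61. B2m, of the class I antigen complex, read 9.15, 9.04 and 9.13. Gapdh varied more, at 6.14, 6.57 and 6.38. Hprt1 read 5.17, 5.20 and 4.74, and its second probe was even at 4.01, 3.98 and 3.98. Tfrc read 2.38, 2.35 and 1.78, and its 2 dimmer probes were also lowest in rat 3.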

How the data were processed

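Liver RNA of 6 rats was measured, 3 of them given corn oil, with groups set by the treatment label and animals numbered by the titles. The deposited scanner tables hold intensity values per spot from Agilent Feature Extraction, with background already subtracted by that software. Its version is 10.7 in the submitters' processing notes and 10.7.1.1 in the headers of the files. A further deposited table gives 1 linear ratio per probe, which matched the intensity over the array's 75th percentile with an offset of -0.0041 to -0.0015 (log2), so its scaling was inferred from the values. How the authors made that ratio is not given in the sources used here.

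Of 62976 spots, 1439 controls and 18 probes with an outlier flag were left out. Signals were log2-transformed after division by the 75th percentile of each array (numpy 2.4.6, pandas 2.3.3), and the 3 values per probe give the mean and SD. Probes were named through unversioned RefSeq accessions: 28193 of 61537 (45.8%) matched 1 of 15639 symbols. The array design rests on an older assembly, so no gene coordinates are given beyond the promoter windows, and those come from a GRCr8 table. With 1 group there is nothing to test, so values, counts and spreads are given with no p-value. Only 3 arrays limit the precision. Alternatives were scaling to the median, quantile normalization and normexp with offset 50 (limma 3.58.1), other filters, other probes and leaving out each animal. The procedure was tested on simulated data.

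Named genes were the 20 brightest named probes, the 12 most variable genes and the 8 most variable of the brightest 25%, the 2 brightest and 2 most variable of each list, and a set of known liver genes. Some names under this rule are left out for length, and some are not reported here. Srebf1 was not matched to a probe. The genes and lists were chosen with earlier results of these data known.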

Additional observations from a re-analysis of the deposited data

How the results depend on the processing

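The median SD of 0.160 became 0.125 with normexp background correction, 0.172 when a probe had to be above background on at least 1 array and 0.180 with no filter. It was 0.123 to 0.139 when 1 animal was left out. The number of genes with a range over 1, 730 in the report, was 395 with normexp, 1305 with the filter on at least 1 array, 2360 with no filter and 363 to 403 when 1 animal was left out. A range over 2 animals can only be smaller than over 3. With the second-brightest probe, an alternative chosen after seeing the data, it was 357 of 5740 genes. Of the 20 brightest probes 11 remained with normexp and 18 to 19 when 1 animal was left out. Scaling to the median (727 genes), quantile normalization (731), the deposited value table (732), the mean of a gene's probes (695) and leaving out a block of spots on all arrays, also chosen after seeing the data (727), changed the count by less than 1.5 times. Of 183 named genes, 159 kept their SD within 1.5 times with normexp, 171 with quantile normalization, 156 with the mean of a gene's probes and 117 to 130 when 1 animal was left out. With the second-brightest probe 53 of 94 did. The 14 counts of list members by highest or lowest animal that were recomputed stayed within 1.5 times under other scalings, normexp, the other filters and the mean of a gene's probes. No paired analysis was possible because only 1 group was described. Dim probes limit the data: 30.0% of probes were well above background on no array, and low levels carry the largest spread.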

Other observations

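Interferon-stimulated and antigen presentation genes were measurable in the corn oil livers, with 26 of 28 above background, a median level of 2.14 and a median SD of 0.230. Ifi27 read 8.06, 8.49 and 7.99 in rats 1, 2 and 3. The chemokine genes Cxcl9 (-0.51, 0.12 and -1.02) and Cxcl10 (-0.20, 0.65 and -0.50) were highest in rat 2. Iron handling genes had a median level of 2.59 over 18 genes. Smad7, a feedback inhibitor of the signal that drives hepcidin, read 2.81, 1.57 and 1.22, and Tfr2, the second transferrin receptor, 2.82, 3.08 and 3.64. Heat shock and chaperone genes had a median level of 3.91 over 21 genes. Of the 21, 1 had a range over 1, close to the 6.34% of all genes. Hspa8 read 8.17, 8.33 and 8.39, Hspe1 6.97, 7.02 and 7.02, and Hspa1a, the inducible member, -2.43, -0.98 and -2.00. Dnajb9, an endoplasmic reticulum chaperone partner, read 1.59, 1.66 and 2.43.

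Some values stood apart from the rest of their list. Aqp2, a water channel known from the kidney collecting duct, read 3.58, 4.15 and 4.01 on 1 probe and -3.12, -2.54 and -1.84 on the other, and 12 of the 22 markers of kidney, lung, brain and testis were above background on no array. Fabp2, the intestinal fatty acid binding protein, read 0.33, 0.97 and 0.37. Genes outside all lists with a wide spread on separate probes were picked after their values were seen. Averaged over its probes, Rec114 read -3.67, -1.97 and 0.58, Clec2d2l2 -0.91, -4.11 and -3.64, Zfp354a 2.82, 3.64 and 0.79, Gpx2 -3.21, -0.38 and -1.77, and Cdh17 0.52, 0.33 and -2.46. Hdc, which makes histamine, read 0.99, 3.45 and 1.75. The cause of these differences was not tested.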
